A study of Mus musculus with 10 samples.

Results

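The cells examined here were male C57BL/6 mouse embryonic stem cells (mESCs) after 20 passages (p20) on gelatin, set against the cells from which those cultures were started (p0). The comparison held 4 of the 10 libraries of the series, 2 per group, and each gene is given against both p0 libraries because these differed from each other. The study derived 2 independent lines by its own method, Keniry2022, in which cells grow in suspension and are passaged every 24 h. At p0 each line was divided, and 1 part was moved to the Mulas2019 method, in which cells attach to gelatin on tissue culture plates and are passaged every 48 h at a lower density and in less medium. The labels name Mulas2019 as Old or On and Keniry2022 as New or Off, and this reading rests on the methods of the study. All groups shared 2i/LIF medium (the inhibitors PD0325901 and CHIR99021 with LIF), so p0 and p20 differ in culture method, in passages and in days of culture, and these cannot be told apart. The other libraries were p10 Mulas2019, p10 Keniry2022 and p20 Keniry2022, with 2 libraries each.

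In 2i/LIF, PD0325901 blocks MEK and so the ERK pathway, CHIR99021 blocks GSK3 and so mimics WNT signalling, and LIF acts through STAT3. Together they hold mESCs in the naive state, marked by factors such as Nanog, Klf4, Esrrb and Zfp42 and by low DNA methylation, in which many genes of the germline that methylation silences elsewhere are transcribed. Changes in attachment, density and time between passages can also reach amino acid, glucose and oxygen responses, among them the ATF4 and hypoxia-inducible factor programmes. The part of such changes in the values below was not tested.

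Whole reads worked out from the deposited log2 RPKM values (reads scaled by exon length and by library total) gave 24053991 and 27030253 reads in the p0 libraries and 27692204 and 27447092 in the p20 Mulas2019 libraries. Y-linked genes (Ddx3y, Eif2s3y, Kdm5d and Uty) had 132 and 8140 reads in the p0 libraries, and 13 and 4578 in the p20 Mulas2019 libraries of the same numbers. The libraries with few such reads are read here as the line in which the study reported Y chromosome loss, so the p0 libraries differ in this too. The replicate numbers of these groups are read here as following the lines, but in p20 Keniry2022 the order was the opposite (6659 and 48 reads). Markers of mESCs were present in all libraries, at a summed 3220 to 4680 RPKM at p0 and 2530 to 2580 at p20 Mulas2019. Trophectoderm markers summed to 2.65 to 3.04 RPKM at p0 and 4.5 to 4.73 at p20, fibroblast markers to 0.462 to 0.641 and 0.968 to 1.22, primitive endoderm markers to 2 to 2.13 and 2.06 to 2.15, neural markers to 71.1 to 88.1 and 51.1 to 58, and mesendoderm markers to 9.63 to 14.8 and 6.49 to 6.93. Changes in several of these sums rested largely on single genes. Pdgfrb went from -2.72 and -1.3 to -0.04 and -0.52 on the log2 scale, while the fibroblast markers Col1a2, Col3a1, Dcn, Lum and Postn stayed very low. Eomes, counted in both the trophectoderm and mesendoderm sums, rose from 0.7 and 0.82 to 1.58 and 1.51. Gsc fell from 3.68 and 2.88 to 1.54 and 1.69, and most of the neural sum was Tubb3. Dppa5a, the highest of the mESC markers, fell from 11.58 and 10.79 to 10.30 and 10.35. Pou5f1, Nanog and Zfp42 were also lower at p20, while Sox2, Esrrb, Klf4 and Tfcp2l1 overlapped between the groups. The sums do not count cells, and the part of such cells in the differences below was not tested.

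Between p0 and p20 Mulas2019, limma's moderated test called 3386 of 11561 features (29.3%) at an adjusted p below 0.05, with 1695 higher (14.7%) and 1691 lower (14.6%) at p20. Changes of 1 or more on the log2 scale were seen in 454 of them, 240 higher and 214 lower, and the median absolute log2 difference was 0.625. In all 3386 both p20 libraries lay beyond both p0 libraries, but so did many features that were not called, since 34.7% of all tested features lay above both p0 libraries and 31.1% below both. The number of calls rests on the spread of the other groups. With the 4 libraries alone, with the 6 libraries of p0 and Mulas2019, or with weights for library quality, limma called 0 features at an adjusted p below 0.05, against 2401, 3918 and 2425 at an unadjusted p below 0.05. Without p20 Mulas2019 replicate 1 it called 1 feature, and without p20 Mulas2019 replicate 2 it called 16. Every p-value below carries this limit and covers the spread between single libraries of 2 lines.

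The p0 libraries stood further apart than any pair they were compared with. The SD of their log2 difference across features was 0.611, against 0.265 for the p20 Mulas2019 pair and 0.25 for the p10 Mulas2019 pair, and 838 features had p0 values at least 1 apart on the log2 scale, against 23 for the p20 libraries. In 423 called features the gap between the p0 libraries was wider than the difference from p20. Without p0 replicate 1, 18.8% of features were called higher and 18.7% lower, and without p0 replicate 2, 37.1% and 34%. The list counts given below without either p0 library are to be read against these shares.

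Feature length moved with this gap. Features under 1000 bases of exon had a median p0 replicate 1 minus replicate 2 of 0.55 on the log2 scale, and those over 4000 bases of -0.32. From p0 replicate 1 to p20, the median log2 difference was -0.68 in the shortest class and 0.45 in the longest, and from p0 replicate 2 it was -0.20 and 0.12. Of the 4738 features over 4000 bases, 25% were called higher and 5.55% lower, and of the 977 under 1000 bases, 4.91% and 27.6%. A correction for length, chosen after seeing these data, called 3360 features (13.6% higher and 15.5% lower), of which 2428 were among the 3386. Values after this correction stand beside the lists of short or long genes, and the part of length in them was not tested further.

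**Figure D1:**
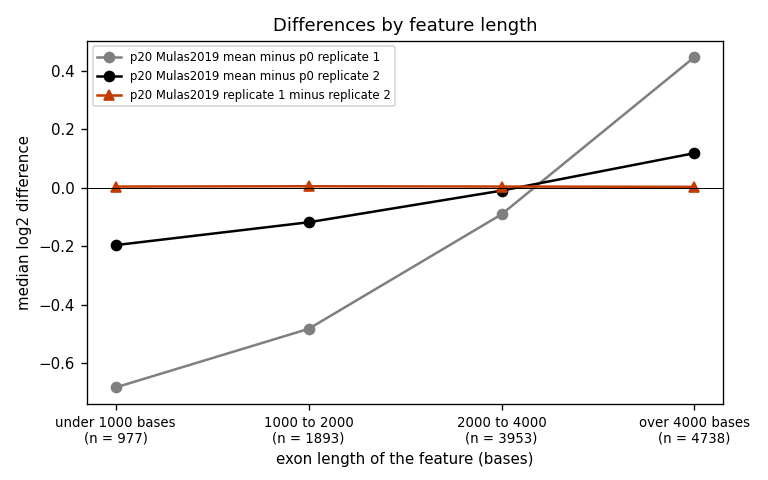
Median log2 difference (y axis) in 4 classes of exon length (x axis, number of features below each), for the p20 Mulas2019 mean minus each p0 library and for the p20 Mulas2019 pair. Against p0 replicate 1 the medians run from -0.68 to 0.45, against p0 replicate 2 from -0.20 to 0.12, and within the p20 pair they stay near 0.

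The features with the widest gap between the groups, among those with a mean log2 RPKM of at least 3, were led by the Malat1 locus. Malat1, a nuclear long noncoding RNA, was at log2 RPKM 3.63 and 3.15 in the p0 libraries (replicates 1 and 2) and 5.24 and 5.13 in the p20 libraries, a 3.46-fold higher level (log2 difference 1.79, SE 0.20, limma adjusted p = 0.00753). Gm20417, which overlaps Malat1 and cannot be separated from it by these reads, went from 2.40 and 2.61 to 4.80 and 4.78. Both features were higher in both p20 libraries than in either p0 library, as the choice of this group requires. Cdx1, a caudal homeobox gene that answers to WNT, was at 3.38 and 3.07 at p0 and 4.96 and 4.77 at p20 (log2 difference 1.64, SE 0.15, limma adjusted p = 0.00446). Stra8, a germ cell gene required for entry into meiosis, was already high at p0, at 5.30 and 5.10, and reached 6.95 and 6.55 (difference 1.54, SE 0.19, limma adjusted p = 0.00895). Plagl1, an imprinted zinc finger gene, had a mean log2 RPKM of 2.96 over the 4 libraries and so lies outside this group. It rose from 2.15 and 2.36 to 3.76 and 3.58 (difference 1.42, SE 0.12, limma adjusted p = 0.00431). Slc1a4, a transporter of neutral amino acids, rose from 3.49 and 3.77 to 4.63 in both p20 libraries, a log2 difference of 1.0. Bhlhe40, a helix-loop-helix repressor induced by hypoxia, was at 3.70 and 4.72 at p0 and 5.72 and 5.57 at p20, so its rise was 1.94 against p0 replicate 1 and 0.92 against p0 replicate 2. The widest-gap group also held the basement membrane proteoglycan Agrn, the secreted glycoprotein Stc2, the feature Mir196a-1 (a kit for long RNA does not measure the mature microRNA), Leng8, Gm17657 and 9430015G10Rik, with log2 differences of 0.97 to 1.42.

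Among features that fell, Car13, a carbonic anhydrase, was at 3.67 and 3.71 at p0 and 2.26 and 2.41 at p20, a difference of -1.36 (SE 0.13, limma adjusted p = 0.00491). S100a13, a calcium-binding protein gene, fell from 4.86 and 4.56 to 3.22 and 3.33, and Zfp459, a zinc finger gene, from 4.53 and 4.45 to 3.41 and 3.49 (difference -1.04, SE 0.09, limma adjusted p = 0.004). In these 3 genes the p0 libraries lay close together beside the size of the fall. Crip1, a small LIM domain protein gene, fell from 5.65 and 4.73 to 3.52 and 3.64. The overlapping features 2410004A20Rik and Gm20509, whose reads cannot be separated, fell by 1.71 and 1.82 on the log2 scale. Hesx1, Nr0b1, Syce1, Rpl37a, Gm10664 and Gm15564 completed this group, and the first 4 are described with their lists. The call of Gm15564 was lost under several alternatives, among them the length correction.

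**Figure D2:**
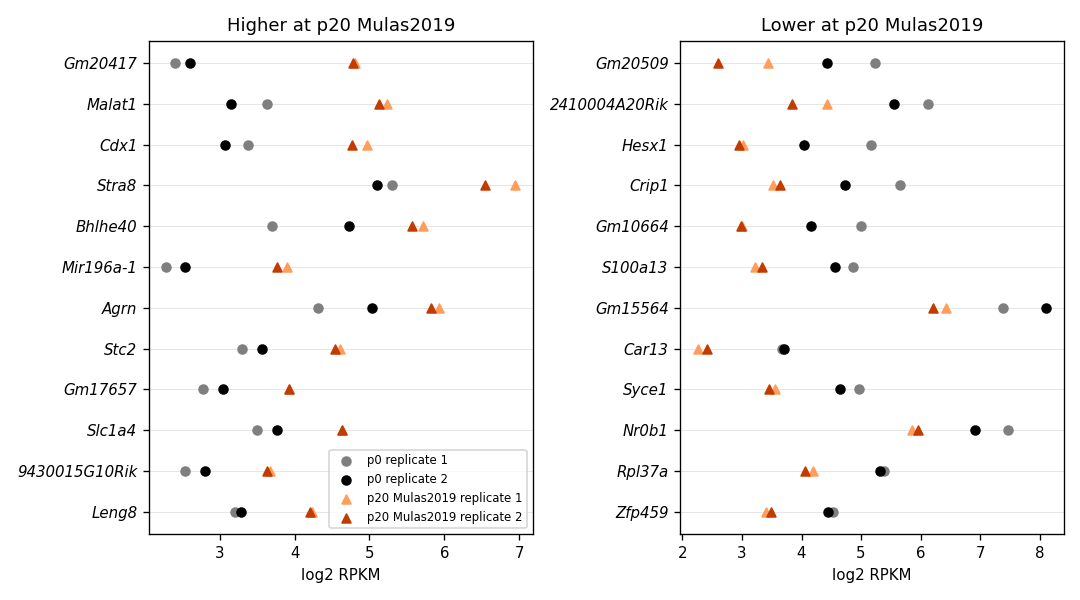
Log2 RPKM (x axis) in each p0 (circles) and p20 Mulas2019 (triangles) library for the 12 higher and 12 lower features with the widest gap between the groups. The triangles lie beyond both circles in every feature, as the choice of features requires. The circles of Bhlhe40, Hesx1, Crip1, Gm10664, Gm20509, Gm15564 and Agrn are among those furthest apart.

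Pluripotency genes split into those that fell and those without a call. Of 28 core and naive pluripotency genes, all tested, 11 fell and 1 rose (39.3% and 3.57%, against 14.6% and 14.7% of all features). Their median log2 difference was -0.21, against 0.03 over all features. The median was -0.24 against p0 replicate 1, -0.13 against p0 replicate 2 and -0.15 after the length correction, but it was 0.07 after quantile normalisation, so the direction of the list depends on scaling. Pou5f1 (Oct4) was at 9.23 and 8.71 at p0 and 8.35 and 8.36 at p20, a difference of -0.62 (SE 0.15, limma adjusted p = 0.0277). Nanog was at 9.10 and 9.04 at p0 and 8.68 and 8.72 at p20 (difference -0.37, SE 0.08, limma adjusted p = 0.0225), but its difference was 0.12 after quantile normalisation. Zfp42 (Rex1) went from 6.03 and 5.79 to 5.63 and 5.55, and the calls of Nanog and Zfp42 were lost after the length correction. Larger falls were seen in Nr0b1 (Dax1), an orphan nuclear receptor, from 7.46 and 6.92 to 5.85 and 5.95 (difference -1.29, SE 0.16, limma adjusted p = 0.00895), and in Dppa3 (Stella), from 6.87 and 5.83 to 4.96 and 5.33. Fbxo15 fell from 8.86 and 8.57 to 7.89 and 7.95 and Dppa5a from 11.58 and 10.79 to 10.30 and 10.35. Pecam1, a surface adhesion protein, was the member that rose, from 4.76 and 5.21 to 5.68 and 5.53.

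Several central factors did not pass the test. Sox2 was at 7.80 and 7.56 at p0 and 7.71 and 7.79 at p20, Esrrb at 6.32 and 6.53 and then 6.49 in both, and Tbx3 at 4.90 and 4.97 and then 4.93 and 4.84. For these 3 and for Klf4 (5.78 and 5.58, then 5.64 and 5.57) the groups overlapped and the difference was between -0.08 and 0.07, with its sign turned by at least 1 alternative. Prdm14 had a difference of -0.22 (limma adjusted p = 0.0814). Tfcp2l1 had a low value in p0 replicate 1, 5.88, but was at 6.97 in the other p0 library and at 7.05 and 6.95 at p20, so that its difference of 0.58 (limma adjusted p = 0.154) came from 1 p0 library.

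**Figure D3:**
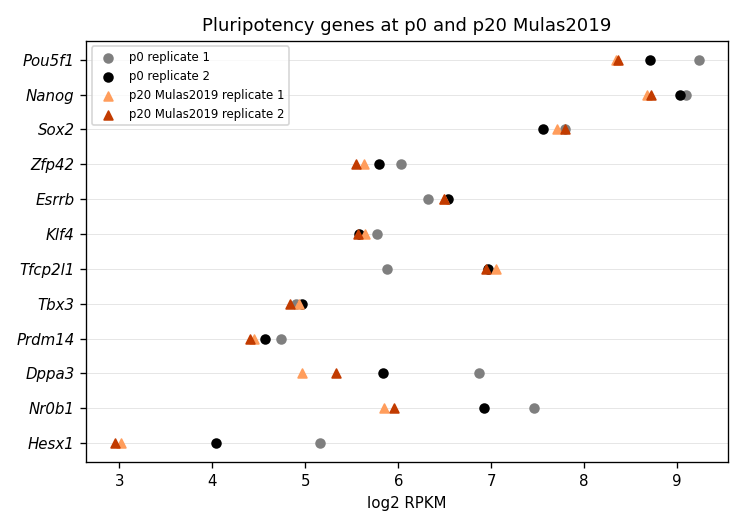
Log2 RPKM (x axis) of 12 pluripotency genes in each p0 (circles) and p20 Mulas2019 (triangles) library. Pou5f1, Nanog, Zfp42, Dppa3, Nr0b1 and Hesx1 lie lower at p20 in both libraries, while the points of Sox2, Esrrb, Klf4 and Tbx3 overlap.

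Of 15 tested genes of the formative and primed states (23 listed), 4 fell (26.7%) and 2 rose (13.3%), against 14.6% and 14.7% of all features, with a median of -0.02 that was 0.05 after quantile normalisation. Hesx1, a homeobox gene of early epiblast and forebrain, fell from 5.16 and 4.04 to 3.02 and 2.96 (difference -1.61, SE 0.32, limma adjusted p = 0.0174). Foxd3, a forkhead factor, fell from 3.78 and 3.07 to 2.21 and 2.03, Utf1 from 6.91 and 6.01 to 5.31 and 5.30, and Lefty2, a Nodal antagonist, from 4.29 and 4.44 to 3.83 and 3.89. In the first 3 the fall was steeper from p0 replicate 1 than from p0 replicate 2. Lef1, a WNT effector, rose from 2.08 and 2.17 to 3.02 and 3.29.

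Germline genes that DNA methylation holds silent in most cells mostly fell. Of 25 tested members (34 listed), 17 fell (68%) and 3 rose (12%), against 14.6% and 14.7% of all features, with a median log2 difference of -0.76. The median was -0.66 against p0 replicate 1 and -0.73 against p0 replicate 2, and 18 and 16 members were called lower without p0 replicate 1 and without p0 replicate 2. After the length correction 13 were lower and 2 higher, with a median of -0.51. Rhox6 and Rhox9, X-linked reproductive homeobox genes with close paralogues that share reads, fell from 3.47 and 2.50 to 1.19 and 0.60, and from 1.55 and 0.90 to -0.28 and -0.53. Syce1, of the synaptonemal complex, fell from 4.97 and 4.64 to 3.56 and 3.45 (difference -1.30, SE 0.13, limma adjusted p = 0.00582). Mael, of the piRNA pathway, fell from 3.30 and 3.14 to 2.15 and 2.05 (difference -1.12, SE 0.16, limma adjusted p = 0.00988). Stra8 went the other way, as given above, with Brdt (difference 0.99) and Xlr3a (0.40).

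The 250 bases before the start of these genes (RefSeq, GRCm38.p6) were searched for short motifs. In all 9 motifs were looked for on both strands in 5 lists (germline, ATF4, cholesterol, glycolysis and hypoxia), which makes 45 pairs, and the 2 pairs described in detail were chosen after their shares were seen. Among the other 43 pairs the share in members was from 0 to 13.5 times that in all tested features with a promoter, it was over 2 times in 13 pairs, and 17 pairs had no member with the motif. The motifs were TGATGCAA and its looser form TGATGNAA, the E-box CACGTG with its shorter core ACGTG and its longer form TCACGTGA, the letters TCCCGC as well as GGCGGGAA, and TCACCCCAC with its looser form TCACNCCAC, so several contain one another. The E-box CACGTG was in 11 of the 22 germline members with a promoter sequence (50%), against 6.86% of 27025 RefSeq genes and 10.6% of tested features. It was in 8 of 15 members that fell, 2 of 4 without a call and 1 of 3 that rose, so its presence did not go with the call. The longer form TCACGTGA was in none of the 22, TCCCGC in 31.8% against 35.7% of tested features, and GGCGGGAA in 18.2% against 4.34%. Promoters of 3 members that fell and hold the letters, of Syce1, which fell, and of Stra8, which rose, the last 2 without a match, are shown 5′ to 3′ on the gene strand, with CACGTG in capitals.
Mael, chr1:166238745-166238994, minus strand: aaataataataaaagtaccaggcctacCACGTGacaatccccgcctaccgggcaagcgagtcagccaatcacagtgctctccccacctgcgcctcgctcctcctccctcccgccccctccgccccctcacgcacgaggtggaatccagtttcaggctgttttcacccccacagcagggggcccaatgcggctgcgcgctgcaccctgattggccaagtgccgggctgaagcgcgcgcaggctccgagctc
Sycp3, chr10:88459337-88459586, plus strand: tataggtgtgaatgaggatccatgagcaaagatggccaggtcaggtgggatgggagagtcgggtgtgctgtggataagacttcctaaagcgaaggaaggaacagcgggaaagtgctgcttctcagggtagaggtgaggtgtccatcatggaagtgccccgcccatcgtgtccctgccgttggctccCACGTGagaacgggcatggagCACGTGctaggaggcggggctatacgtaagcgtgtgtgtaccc
Taf7l, chrX:134476491-134476740, minus strand: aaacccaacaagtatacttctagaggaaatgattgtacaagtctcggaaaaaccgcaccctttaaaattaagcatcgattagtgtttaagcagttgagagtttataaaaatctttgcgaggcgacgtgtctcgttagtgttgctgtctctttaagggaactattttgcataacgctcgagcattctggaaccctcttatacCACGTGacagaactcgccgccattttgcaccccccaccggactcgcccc
Syce1, chr7:140787855-140788104, minus strand: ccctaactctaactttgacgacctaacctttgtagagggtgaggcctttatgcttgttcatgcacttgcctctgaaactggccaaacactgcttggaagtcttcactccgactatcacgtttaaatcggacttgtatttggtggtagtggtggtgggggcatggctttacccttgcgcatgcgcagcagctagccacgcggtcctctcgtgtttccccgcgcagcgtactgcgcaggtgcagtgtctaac
Stra8, chr6:34920698-34920947, plus strand: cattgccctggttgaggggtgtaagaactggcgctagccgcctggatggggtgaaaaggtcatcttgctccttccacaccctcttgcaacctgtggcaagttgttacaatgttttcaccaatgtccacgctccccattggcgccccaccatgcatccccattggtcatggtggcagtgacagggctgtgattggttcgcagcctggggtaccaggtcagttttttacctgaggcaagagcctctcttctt

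Mael holds the letters 223 bases before its start, Taf7l 49 bases before, and Sycp3 64 and 43 bases before. Sycp3, of the synaptonemal complex, had a log2 difference of -1.19 and Taf7l, a TFIID subunit of germ cells, of -0.53, and these were named for their promoters after their values were seen. A match of letters is a description of these windows only.

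Genes of the ATF4 and integrated stress response, which raise amino acid synthesis, uptake and tRNA charging, rose. Of 46 tested members (47 listed), 23 rose and 2 fell (50% and 4.35%, against 14.7% and 14.6% of all features). Their median log2 difference was 0.34. The median was 0.28 against p0 replicate 1, 0.38 against p0 replicate 2 and 0.42 after the length correction, where 26 rose and 2 fell. Without p0 replicate 1 there were 29 higher and 2 lower members, and without p0 replicate 2, 27 and 4. Slc6a9, a glycine transporter, rose from 0.29 and 0.47 to 2.03 and 2.00 (difference 1.64, SE 0.17, limma adjusted p = 0.00574), with overlapping features on its locus. Vldlr, a lipoprotein receptor, rose from -0.76 and 0.09 to 1.37 and 1.33 (difference 1.69, SE 0.26, limma adjusted p = 0.0117). Aldh1l2, of mitochondrial folate metabolism, rose from -0.63 and 0.18 to 1.44 and 1.19, and Stc2 from 3.30 and 3.56 to 4.61 and 4.54. In each of these 4 genes both p20 libraries were above both p0 libraries, as the choice of leading members requires and as in 34.7% of all features. Cth, an enzyme of cysteine synthesis, fell from 7.38 and 6.95 to 6.66 and 6.65. Atf4 itself had a difference of 0.14 and Asns, asparagine synthetase, of 0.16, and neither passed the test.

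TGATGCAA, the letters of a C/EBP-ATF response element, was in 8 of the 37 members with a promoter sequence (21.6%), against 0.918% of RefSeq genes and 0.627% of tested features. It was in 3 of 19 members that rose and 5 of 18 without a call, so members that rose did not hold it more often. The looser TGATGNAA was in 29.7% of members and 2.2% of tested features. Vldlr and Atf3, an ATF family factor (difference 0.84), are 2 of the 3 members that rose and hold TGATGCAA. Their promoters are shown with the letters in capitals, which read TTGCATCA because they lie on the opposite strand, and Vldlr has a further start without a match.
Vldlr, chr19:27216770-27217019, plus strand: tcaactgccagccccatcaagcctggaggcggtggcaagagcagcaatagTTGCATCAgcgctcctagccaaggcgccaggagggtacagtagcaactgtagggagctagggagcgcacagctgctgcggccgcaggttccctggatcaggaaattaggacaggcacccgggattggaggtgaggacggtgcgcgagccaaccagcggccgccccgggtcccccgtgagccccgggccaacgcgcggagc
Atf3, chr1:191183334-191183583, minus strand: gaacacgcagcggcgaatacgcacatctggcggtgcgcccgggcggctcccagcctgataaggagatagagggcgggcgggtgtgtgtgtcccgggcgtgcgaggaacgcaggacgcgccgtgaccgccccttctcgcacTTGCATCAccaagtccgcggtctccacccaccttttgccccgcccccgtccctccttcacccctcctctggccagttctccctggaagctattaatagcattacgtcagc

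The letters start 200 bases before this start of Vldlr and 110 bases before that of Atf3. Stc2, one of the leading members, had no match.

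**Figure D4:**
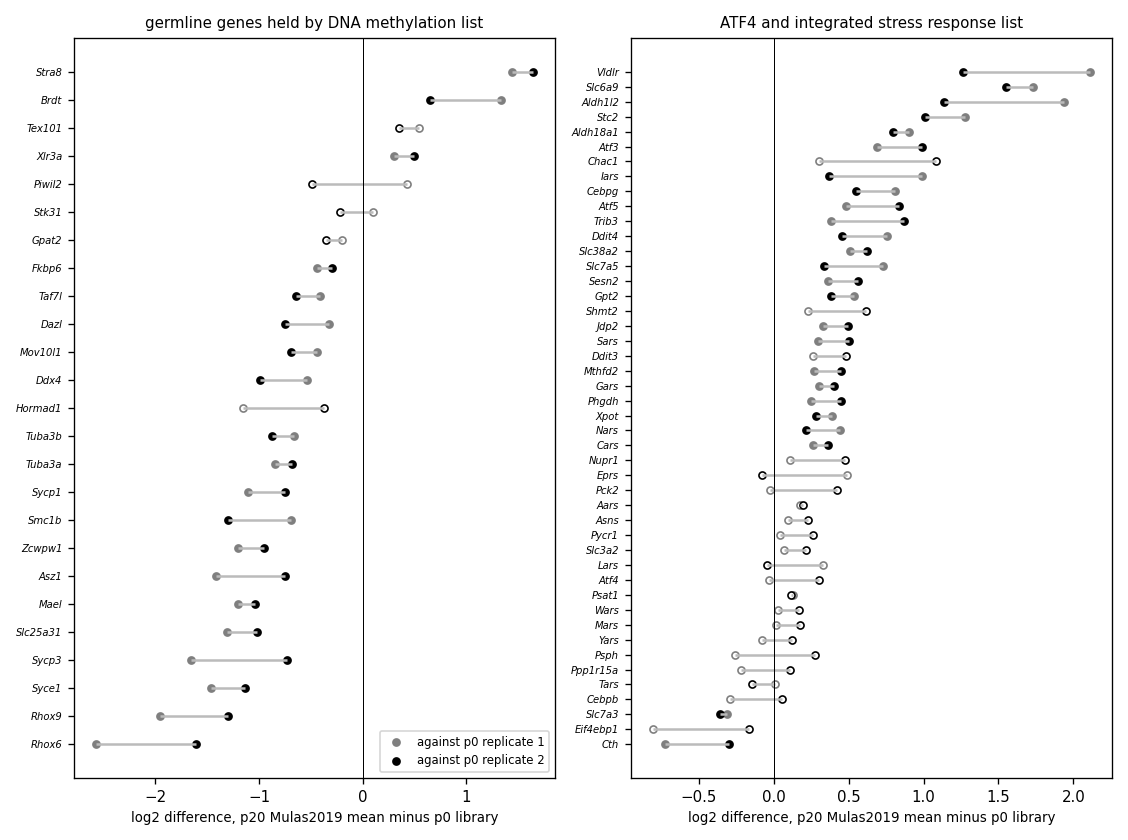
Log2 difference (x axis) of the p20 Mulas2019 mean from p0 replicate 1 (grey) and p0 replicate 2 (black) for each tested member of the germline (left, 25) and ATF4 (right, 46) lists; filled circles mark called members and open circles those without a call. Most germline members lie below 0 against both p0 libraries, and Stra8 lies highest; most ATF4 members lie above 0.

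Glycolysis genes rose in 13 of 21 tested members (61.9%, against 14.7% of all features) and fell in none. Their median log2 difference was 0.43. Against p0 replicate 1 the median was 0.50, against p0 replicate 2 0.36, and after the length correction 0.31, again with 13 higher. Pfkl, the liver form of phosphofructokinase, rose from 5.76 and 6.17 to 6.87 and 6.78 (difference 0.86, SE 0.14, limma adjusted p = 0.0122). Pfkp, the platelet form, rose from 5.47 and 5.85 to 6.52 and 6.37, and Slc16a3, a lactate exporter, from 4.53 and 4.80 to 5.36 and 5.35. Gapdh rose from 2.15 and 2.14 to 3.04 and 2.86, but Gapdh has many pseudogenes that share its reads and is uncertain.

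Targets of hypoxia-inducible factors rose in 8 and fell in 2 of 22 tested members (36.4% and 9.09%, against 14.7% and 14.6% of all features). Their median was 0.71 against p0 replicate 1 and 0.23 against p0 replicate 2, and without p0 replicate 2 there were 13 higher and 7 lower. Vegfa, a growth factor for vessels, rose from 3.72 and 4.26 to 5.04 and 4.94 (difference 1.0, SE 0.16, limma adjusted p = 0.0122). Egln3, an oxygen-sensing prolyl hydroxylase, rose from 3.69 and 4.24 to 4.98 and 4.94, and Ndufa4l2 from 3.67 and 3.81 to 4.67 and 4.50. Cited2 fell from 4.36 and 3.98 to 3.69 and 3.58.

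In cholesterol synthesis and uptake, 7 of 24 tested members rose (29.2%, against 14.7% of all features) and none fell, with a median of 0.16. Lss, lanosterol synthase, rose from 2.33 and 2.58 to 3.16 and 3.15, although this call was lost after the length correction. Dhcr7, the last enzyme of cholesterol synthesis, rose from 4.01 and 4.12 to 4.68 and 4.65 (difference 0.60, SE 0.09, limma adjusted p = 0.0108). Hsd17b7 rose from 1.68 and 2.23 to 2.60 and 2.53, a call lost under several alternatives, among them quantile normalisation and the replicate block, a term for the shared replicate number. With that block 5 members rose, against 13.3% of all features higher and 13.8% lower. Without p0 replicate 2 there were 12 higher and 3 lower.

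Integrin and basement membrane genes rose in 10 of 27 tested members (37%, against 14.7% of all features) and fell in 1. This list holds long features, of median length 6046 bases, and its median of 0.47 was 0.78 against p0 replicate 1, 0.20 against p0 replicate 2 and 0.16 after the length correction. Without p0 replicate 2 there were 20 higher and 2 lower. Tinagl1 was alike in the p0 libraries, at 0.40 and 0.42, and rose to 1.79 and 1.44 (difference 1.21, SE 0.16, limma adjusted p = 0.00905). Agrn rose from 4.31 and 5.03 to 5.93 and 5.82, and Hspg2 (perlecan) from 2.38 and 3.64 to 4.37 and 4.43. Lama5, a laminin chain, was at 2.67 and 3.75 at p0 and 4.50 and 4.38 at p20. For Hspg2 and Lama5 the gap between the p0 libraries was over 1 on the log2 scale. Sdc2 (syndecan 2) fell from 4.51 in both p0 libraries to 4.02 and 3.96.

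Of 26 tested genes of focal adhesions and the actin cytoskeleton, 3 rose and 1 fell (11.5% and 3.85%), both below the shares over all features of 14.7% and 14.6%. Without p0 replicate 2 there were 16 higher and 5 lower, and without p0 replicate 1, 4 and 1. Tln1 (talin 1), which links integrins to actin, rose from 3.67 and 4.14 to 4.61 and 4.43, a call lost after the length correction, and Actg1 from 3.58 and 3.75 to 4.03 and 3.98. Tagln2 fell from 4.94 and 4.70 to 4.30 and 4.25. Tln2 (difference 0.83) and Tns1 (0.59) did not pass the test. Actin genes have pseudogenes that share reads.

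Imprinted genes moved in both directions. Of 33 tested members (51 listed), 13 rose and 3 fell (39.4% and 9.09%, against 14.7% and 14.6% of all features). The list median was 0.31. Peg10, a retrotransposon-derived gene of the paternal allele, rose from -0.64 and 0.60 to 2.25 and 2.57, a 5.38-fold higher level (log2 difference 2.43, SE 0.37, limma adjusted p = 0.011). Zdbf2 rose from 1.79 and 2.76 to 3.60 and 3.55 and Usp29 from -0.19 and 0.22 to 1.11 and 0.98, both also paternally expressed. Cdkn1c, a maternally expressed cell cycle inhibitor, fell from 2.00 and 1.99 to 0.30 and 0.73 (difference -1.48, SE 0.25, limma adjusted p = 0.0126). Mest was at 3.47 and 3.16 at p0 and 3.56 and 3.67 at p20 and did not pass the test (limma adjusted p = 0.0767). These values are totals over both alleles.

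Among 18 genes of the DNA methylation machinery, 3 rose (16.7%, near the 14.7% of all features) and 1 fell, with a median of 0.17 that turned to -0.03 after the length correction. Without p0 replicate 2 there were 11 higher and 5 lower. Tet3, which oxidises methylcytosine, rose from -1.19 and -0.27 to 0.88 and 0.70 (difference 1.52, SE 0.28, limma adjusted p = 0.0163). Setdb1, a histone methyltransferase, rose from 3.97 and 4.28 to 4.50 and 4.74, and its call was lost after the length correction. Hells fell from 6.43 and 6.67 to 6.22 in both. The de novo enzymes did not pass the test, with Dnmt3a at 2.33 and 2.79 and then 2.91 and 2.90, Dnmt3b at 4.14 and 4.31 and then 4.21 and 4.48, and Dnmt3l at 4.31 and 4.12 and then 4.24 and 4.39. Mbd1 had a difference of 0.53 and did not pass the test.

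Genes of translation and respiration were lower, in lists made of short features. Of 85 tested cytosolic ribosomal protein genes, 35 fell (41.2%, against 14.6% of all features) and 1 rose. Their median log2 difference was -1.03 against p0 replicate 1, -0.27 against p0 replicate 2 and -0.30 after the length correction. Rpl37a was alike in the p0 libraries, at 5.38 and 5.33, and was at 4.20 and 4.06 at p20, while Rps3 went from 9.80 and 9.11 to 8.58 in both. Rpl10a rose from 4.41 and 3.94 to 4.75 and 4.69, and Rps27 (difference -1.03) did not pass the test. Ribosomal protein genes have many pseudogenes, so single members are uncertain, and the call of Rpl37a was lost after the length correction.

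Of 75 mitochondrial ribosomal protein genes 32 fell (42.7%, against 14.6% of all features) and none rose. Their median was -0.75 against p0 replicate 1, -0.23 against p0 replicate 2 and -0.30 after the length correction. Mrps16 fell from 7.23 and 6.45 to 5.81 and 5.87 (difference -1.0, SE 0.21, limma adjusted p = 0.0201). Mrpl32, Mrpl40 and Mrpl22 fell by 1.0, 0.91 and 0.82 on the log2 scale. Of 75 nuclear-encoded genes of oxidative phosphorylation 42 fell (56%, against 14.6% of all features) and none rose. Their medians were -0.97, -0.33 and -0.33 on the same 3 scales. Uqcrb, of complex III, fell from 7.55 and 6.43 to 5.79 and 5.76, Ndufs4, of complex I, from 6.99 and 5.99 to 5.41 and 5.48, Ndufa5 from 6.26 and 5.32 to 4.68 and 4.79, and Atp5l, of ATP synthase, from 4.07 and 3.12 to 2.44 and 2.53. In all 4 genes p0 replicate 1 was the highest library, and p0 replicate 2 lay between it and p20.

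Proteasome genes fell in 26 of 45 tested members (57.8%, against 14.6% of all features) and rose in none. Their medians were -0.70, -0.25 and -0.29. Psma1, a core subunit, fell from 7.83 and 7.29 to 6.65 and 6.77, and Psmb3 from 6.06 and 5.08 to 4.48 and 4.55. Psmb10 and Psme2, of the immunoproteasome, fell by 1.05 and 0.84 on the log2 scale. Without p0 replicate 1, 43 cytosolic ribosomal, 36 mitochondrial ribosomal, 53 oxidative phosphorylation and 28 proteasome members were called lower. Without p0 replicate 2 the numbers were 79, 70, 70 and 37, and after the length correction 31, 32, 38 and 21 were.

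**Figure D5:**
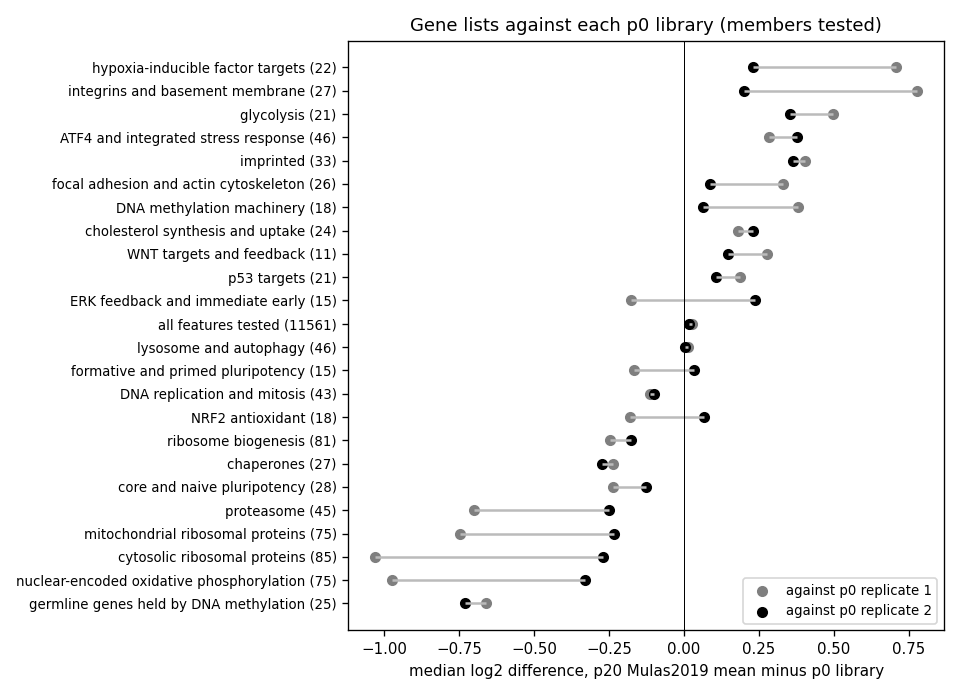
Median log2 difference (x axis) of the p20 Mulas2019 mean from p0 replicate 1 (grey) and p0 replicate 2 (black) over the tested members of each gene list (number in brackets). The germline, ATF4 and imprinted lists lie close together on both scales, while the ribosomal, oxidative phosphorylation, proteasome and integrin lists lie far apart.

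Ribosome biogenesis factors fell in 26 of 81 tested members (32.1%, against 14.6% of all features) and rose in 2, with a median of -0.18 that was -0.14 after the length correction and -0.03 after quantile normalisation. Quantile normalisation gave 20 lower and 13 higher members, against 14.3% and 13.2% of all features, and leaving out p0 replicate 2 gave 45 and 23. Nip7 fell from 6.78 and 5.66 to 4.91 in both p20 libraries, Nhp2 from 8.61 and 7.92 to 7.24 and 7.23, and Nop58, of the box C/D particle, from 8.60 and 8.26 to 7.65 and 7.73. Nhp2l1 fell by 0.76 on the log2 scale. Polr1a, the largest subunit of RNA polymerase I, rose from 4.09 and 4.73 to 5.12 and 5.06.

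Of 27 tested chaperones 11 fell (40.7%, against 14.6% of all features) and 1 rose. The median was -0.21 and turned to 0.13 after quantile normalisation. That scaling gave 4 lower and 3 higher members (14.8% and 11.1%), near the 14.3% and 13.2% of all features. Hsp90aa1, the inducible cytosolic HSP90, fell from 8.85 and 9.09 to 8.24 and 8.31 (difference -0.69, SE 0.13, limma adjusted p = 0.0164). Its constitutive paralogue Hsp90ab1 rose from 10.69 and 10.68 to 11.02 and 10.96. Hspe1, Pfdn4 and Pfdn1 fell by 0.82, 1.0 and 0.89 on the log2 scale.

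Feedback genes of the ERK pathway, held down by PD0325901, rose in 5 and fell in 2 of 15 tested members (33.3% and 13.3%, against 14.7% and 14.6% of all features). Spred1 rose from 1.72 and 2.18 to 2.63 and 2.64, Spry1 from 1.36 and 1.13 to 1.71 and 1.82, Dusp5 from 1.44 and 1.56 to 1.97 and 2.01 and Spred2 from 3.16 and 3.50 to 3.76 and 3.82. Dusp6, a phosphatase of ERK, fell from 2.21 and 1.97 to 0.89 and 0.95 (difference -1.18, SE 0.18, limma adjusted p = 0.0108). So the named members moved in opposite directions, while the share of the list that fell was near that over all features. The median was -0.18 against p0 replicate 1 and 0.23 against p0 replicate 2.

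WNT targets and feedback genes rose in 4 of 11 tested members (36.4%, against 14.7% of all features) and fell in none, with a median of 0.15 that was -0.02 after quantile normalisation. Besides Cdx1 and Lef1, Axin2, a negative regulator of the pathway, rose from 1.26 and 1.64 to 2.41 and 2.28 (difference 0.89, SE 0.15, limma adjusted p = 0.0124). Ccnd1 (cyclin D1) rose from 4.19 and 4.30 to 4.52 and 4.55, and its call was lost without p0 replicate 1 and after the length correction.

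Targets of p53 rose in 8 of 21 tested members (38.1%, against 14.7% of all features) and fell in 1, with a median of 0.13. Cdkn1a (p21), a cell cycle inhibitor, rose from 5.60 and 5.68 to 6.26 and 6.25 (difference 0.61, SE 0.08, limma adjusted p = 0.00905). Zmat3 rose from 3.57 and 4.16 to 4.68 and 4.88, Polk, a repair polymerase, from 1.91 and 2.45 to 2.98 and 3.18, and Sesn2, which is also in the ATF4 list, from 5.43 and 5.24 to 5.77 and 5.82. Bax, a promoter of cell death, fell from 8.73 and 7.93 to 7.63 and 7.67, and that call was lost after the length correction. Of 43 genes of DNA replication and mitosis 9 fell (20.9%, against 14.6% of all features) and 2 rose, with a median of -0.04 that turned to 0.17 after quantile normalisation. Without p0 replicate 2 there were 20 lower and 13 higher. Pcna fell from 6.97 and 6.50 to 5.97 and 5.93, Gins1 from 5.86 and 5.27 to 4.77 and 4.82, Cdk1 from 7.12 and 6.60 to 6.28 and 6.30 and Rfc4 by 0.76 on the log2 scale. Pole, a replicative polymerase, rose from 3.33 and 4.03 to 4.52 and 4.53.

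NRF2 antioxidant genes were divided, with 4 of 18 tested members higher and 5 lower (22.2% and 27.8%, against 14.7% and 14.6% of all features). Cbr3, a carbonyl reductase, fell from 4.99 and 4.36 to 3.35 and 3.48 (difference -1.26, SE 0.21, limma adjusted p = 0.0126), and Gsr, Prdx1 and Txn1 fell by 0.42, 0.96 and 0.94 on the log2 scale. Srxn1 (sulfiredoxin) rose from 4.18 and 4.07 to 4.68 and 4.69. Of 46 lysosome and autophagy genes 7 rose and 6 fell (15.2% and 13%), near the shares over all features, with 18 higher and 14 lower without p0 replicate 2. Atp6v0a1, a subunit of the proton pump, rose from 1.68 and 2.03 to 2.57 and 2.55, Man2b1 from 3.36 and 3.50 to 3.84 and 3.81, Tpp1 from 4.19 and 4.21 to 4.48 and 4.50 and Wipi1 from 0.97 and 1.43 to 1.70 and 1.74, but the call of Wipi1 was lost under several alternatives, among them without p0 replicate 1, after the length correction and with the replicate block (limma adjusted p = 0.0591). Gla fell from 3.39 and 3.32 to 2.83 and 2.78.

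Of 5 tested nuclear RNAs and snoRNA hosts 2 rose and 1 fell (40% and 20%, against 14.7% and 14.6% of all features). Neat1, the scaffold of paraspeckles and a neighbour of Malat1, rose from 0.21 and 0.07 to 1.57 and 1.76 (difference 1.52, SE 0.14, limma adjusted p = 0.00491), a call lost after the length correction. Gas5, a host of snoRNAs, fell from 7.38 and 6.62 to 6.18 and 6.31, and that call was lost without p0 replicate 1. The list median was -0.26 and turned to 0.21 without p0 replicate 1. None of the 4 Y-linked genes passed the test.

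Called genes with the most unequal p0 values show how far the choice of p0 library mattered. Lrp1, an endocytic receptor, was at 1.37 and 3.13 at p0 and 4.06 and 3.81 at p20, so that it rose by 2.56 from one p0 library and 0.80 from the other. Rnf213 was at 2.03 and 3.57 at p0 and 4.46 and 4.17 at p20, Khnyn at 1.79 and 3.20 and then 3.94 and 3.70, Dync1h1, the dynein heavy chain, at 3.55 and 4.96 and then 5.65 and 5.58, and Dst (dystonin) at 2.21 and 3.77 and then 4.24 and 4.37. Usmg5, of ATP synthase, was at 7.23 and 5.81 and then 5.26 and 5.37. In these 6 genes both p20 libraries lay beyond both p0 libraries, as in every called feature. All 6 differed more from p0 replicate 1 than from p0 replicate 2. The exons of several named genes lie in the span of another feature and may share its reads, among them Ccnd1, Setdb1, Tln1, Lss, Pfkp, Ndufa4l2, Pole, Axin2, Polk, Dync1h1, Bhlhe40, Gm10664, Gm15564, Uqcrb, Usmg5, Psmb10, Nhp2, Pfdn4, Hspe1, Rfc4, Gas5, Pou5f1, Sox2, Tbx3, Mest and the Dnmt3 genes.

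Within Mulas2019, p20 was set against p10 to ask whether cells were still moving. Limma called 0 of 11561 features (0%), with 772 at an unadjusted p below 0.05, and voom on recovered reads called 1. This fit shares its spread with the p0 libraries, and with weights for library quality it called 512 features. The 0 is thus not evidence that cells had stopped changing. Malat1 was at a mean of 4.11 at p10 and 5.18 at p20, Neat1 at 0.49 and 1.66, and Cdx1 at 3.65 and 4.87, while Stra8 was at 6.97 and 6.75, Vldlr at 1.60 and 1.35, and Slc6a9 at 2.04 and 2.02. None of these 6 differences passed the test in the reported fit. Trh, thyrotropin-releasing hormone, was at 5.22 and 4.99 at p0, a mean of 3.08 at p10 and 4.16 and 4.43 at p20, and its difference from p0 of -0.81 did not pass the test (limma adjusted p = 0.0774).

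The test of the method at equal passage number was p20 Mulas2019 against p20 Keniry2022, which share their p0 cells, and it called 249 features (2.15%), 178 higher and 71 lower under Mulas2019. Malat1 was 2.35 higher on the log2 scale (limma adjusted p = 0.00837), Stra8 1.37 higher and Vegfa 1.14 higher. Peg10, by contrast, was at a mean of 2.41 under both methods, and Lef1 at 3.15 and 3.11, so for these the rise from p0 was also present in suspension culture at p20. Among germline genes 1 was higher and none lower than in p20 Keniry2022, and among ATF4 genes 9 were higher and 1 lower. p20 Mulas2019 was in culture for more days than p20 Keniry2022, so method and days cannot be told apart here.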

How the data were processed

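RNA was sequenced as 75 bp single-end reads from TruSeq libraries. The authors deposited log2 RPKM values made in SeqMonk for 25965 features on mm10; its name says log CPM and the methods say RPM, but features without reads lie at floors set by their length, with 0 reads entered as 0.9. HISAT2 is named in the methods, but TopHat2 2.0.12 and bcl2fastq in the submitters' processing notes, and this conflict is unresolved. Annotation release and strandedness: not given in the sources used here. Names were matched to GENCODE vM21 (24819 features) and promoters to RefSeq (GRCm38.p6).

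Deposited log2 values were tested with limma 3.58.1 (R 4.3.3): 1 model of 10 libraries and 5 groups, eBayes with an intensity trend, two-sided, Benjamini-Hochberg over all features tested, threshold 0.05. Features with a log2 value above 0 in at least 50% of libraries were tested. The authors fitted counts with edgeR and voom. On simulated data for p20 Mulas2019 against p0 (11561 features), 13% of 100 features with a log2 change of 0.5 were recovered, and 65% of 100 with a change of 1, and 5 unchanged features were called. The simulation gave all 10 libraries equal and independent spread, without the wide p0 pair or its tie to feature length. It therefore does not measure false calls against the real p0 libraries. Totals and exon lengths were worked out from the floors and from whole reads (tolerance 0.1). In 115 features no whole reads were found, and depth was 24053991 to 30236817 reads per library.

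The genes and lists were chosen with earlier results of these data known. Named genes were, in each direction, the 12 called features with the widest gap between groups and a mean log2 of at least 3, the leading 4 members of each list (3 in lists under 10) with 1 of the other direction, the 6 called features with the most unequal p0 values, and 20 genes given whatever their values. Some genes that the rule names are not reported here. The exons of 6938 features overlap another feature. Feature length and the exchange of the p20 Keniry2022 numbers were added as alternatives after seeing the data. Same-numbered samples of p0 and p20 Mulas2019 come from the same line by their Y-linked reads, but their deviations correlated at -0.012, and those of the p20 groups at -0.386.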

Additional observations from a re-analysis of the deposited data

Results flagged for a closer look

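Of the 145 named features, 23 differed between p20 Mulas2019 and p20 Keniry2022 by limma's test (adjusted p below 0.05), against 2.15% of all features. Most were named for their values in the same p20 Mulas2019 libraries, so the choice itself raises this share. Since the p0 cells are shared, the change of these 23 from p0 differed between the methods. On the log2 scale, 17 were higher under Mulas2019: 9430015G10Rik (0.88), Cdx1 (1.0), Dhcr7 (0.54), Gapdh (0.80), Gm20417 (2.45), Leng8 (0.73), Malat1 (2.35), Mir196a-1 (1.15), Ndufa4l2 (1.01), Neat1 (1.51), Rpl10a (0.78), Slc1a4 (0.63), Slc6a9 (1.13), Stc2 (0.77), Stra8 (1.37), Tinagl1 (1.11) and Vegfa (1.14). The other 6 were lower: Dnmt3b (-0.82), Gsr (-0.40), Lefty2 (-0.54), Mest (-0.66), Trh (-1.57) and Zfp459 (-1.02). Dnmt3b, Mest and Trh had not passed the test against p0. Days of culture differ with the method, and the calls of this comparison fell to between 1 and 28 features when any 1 of the p10 or p20 libraries was left out and rose to 4166 and 4171 without p0 replicates 1 and 2.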

How the results depend on the processing

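For p20 Mulas2019 against p0, calls ranged from 1 to 8175 when single libraries were left out, and were 0 with library quality weights, with only the 4 libraries, and with the 6 libraries of p0 and Mulas2019, with or without the replicate block. Calls were 1473 and 1504 without p10 Mulas2019 replicates 1 and 2, 1280 and 1318 without those of p10 Keniry2022, 1515 and 1484 without those of p20 Keniry2022, and 4318 without p0 replicate 1. The replicate block over all libraries gave 3136 calls, and 2990 with the p20 Keniry2022 numbers exchanged. Other filters and scalings gave 2621 to 3599, with the share called higher at 50.1% in the reported fit, 40.2% after median centring, 41.5% with a log2 filter of 2 and 59.9% by voom. Of the 130 named calls, 116 were kept without either p0 library, with the block and with the length correction, but 0 were kept with only the 4 libraries and 1 and 4 without a p20 Mulas2019 library.

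For p20 Mulas2019 against p20 Keniry2022, calls ranged from 1 to 4171 when single libraries were left out. They were 95 with the log2 filter of 2, 4079 with library quality weights, 460 by voom, 785 with the length correction (603 with the replicate block added), 145 with the replicate block and 156 with the block and exchanged numbers. Against p10 Mulas2019 calls were 0 to 287 without single libraries, 512 with library quality weights and 1 by voom. The causes were not tested.

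Some directions turned. After quantile normalisation the median was 0.072 for core and naive genes, -0.018 for WNT targets, 0.13 for chaperones, 0.169 for DNA replication and mitosis, 0.152 for NRF2, 0.135 for lysosome and 0.052 for formative genes, and single differences were 0.128 for Klf4, 0.125 for Nanog and 0.0824 for Tbx3. After the length correction, with and without the replicate block, values were -0.026 for the DNA methylation machinery, 0.031 for nuclear RNAs, -0.432 for Dnmt3a, -0.0593 for Dnmt3b and -0.201 for Esrrb. When single libraries were left out, the lowest and highest values were -0.719 and 0.207 for nuclear RNAs, -5.252 and 2.356 for the median difference of Y-linked genes, -0.0177 and 0.26 for Dnmt3b, -0.0428 and 0.167 for Esrrb, -0.173 and 0.0213 for Klf4 and -0.0463 and 0.193 for Sox2.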

Other observations

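Chromosome 3 stood apart from the other chromosomes, which was noticed after all 20 had been looked at. Of its 527 tested features 25.6% were called higher and 7.59% lower at p20 Mulas2019, against 10.1% to 17% and 11.4% to 21.3% on the others. Its median log2 difference from p0 was 0.17, against -0.07 to 0.09 elsewhere, and it was 0.13 after the length correction, against -0.06 to 0.08. Against p0 replicate 1 it was 0.17, near the highest other value of 0.15, and against p0 replicate 2 it was 0.14, against at most 0.05. The p20 Mulas2019 libraries lay 0.10 and 0.25 above the p0 mean on this chromosome. In p20 Keniry2022 the median was 0.12, against at most 0.09 elsewhere, and in p10 Mulas2019 it was 0.01, within the range of the other chromosomes. Car13 and S100a13, which fell, lie on this chromosome. No test was made of these medians.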
